A study of Bos taurus and Sus scrofa with 10 samples.

Results

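The genes described here take up glucose and break it down to pyruvate and lactate. They comprise 2 glucose transporters (SLC2A1, SLC2A3), 2 hexokinases (HK1, HK2), a phosphofructokinase (PFKP), 2 enzymes of lower glycolysis, where ATP is gained (PGK1, ENO1), 2 lactate dehydrogenase subunits (LDHA, LDHB) and a subunit of pyruvate dehydrogenase (PDHA1). Members were chosen by symbol: all 10 symbols had 1 row each among the 22845 rows of the cow table, and 6 had 1 row among the 21867 rows of the pig table. SLC2A1, SLC2A3, ENO1 and PDHA1 were not analysed here in pig.

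RNA was sequenced from oocytes, 2-4 cell embryos, 8-16 cell embryos, morulae (in which the cells compact) and blastocysts (with a fluid-filled cavity), 5 stages each of Bos taurus (cow) and Sus scrofa (pig). Each stage of each species had 1 library, so the 10 libraries contain no replicates and no difference below has a replicate check. The labels name no strain, age, genotype, culture condition or treatment, and do not say whether oocytes were mature, how embryos were produced or how many entered a library. The labels' protocols describe total RNA, amplification for low input and 8 cycles of PCR.

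Glucose enters cells through facilitative transporters of the SLC2A (GLUT) family and is trapped by hexokinase as glucose 6-phosphate. Phosphofructokinase commits it to glycolysis, phosphoglycerate kinase and enolase act further down, and lactate dehydrogenase interconverts pyruvate and lactate while pyruvate dehydrogenase feeds pyruvate to the citric acid cycle. Mammalian oocytes and cleaving embryos are known to rely mainly on pyruvate and lactate, and glucose uptake is known to increase towards the blastocyst.

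Levels are given in RPM, the reads of a gene per 1000000 reads of the library, and are not divided by gene length, so a gene is compared between stages and not with another gene. The tables of both species were scaled separately, and changes were computed within a species. Read totals ranged from 3002751 to 14182046, and the deepest library was the cow blastocyst. Intervals are 95% Wilson intervals and, for ratios of 2 libraries, exact binomial intervals. They cover counting error only, since PCR copies are not independent molecules. Mitochondrial genes took between 2.74% and 30.2% of the reads, most in the cow blastocyst library, and RPM values of all other genes are relative to a total that includes them. Of the oocyte markers 16 of 16 were at 1 RPM or more in the cow oocyte library and 0 of 16 in the cow blastocyst library, against 14 and 5 of 14 in pig. Blastocyst markers at 1 RPM or more numbered 14 of 15 in the cow blastocyst library and 11 of 14 in the pig one, where SOX17, NANOG and SOX2 had 0 reads. In whole embryos, fewer cells that express a gene and less RNA of it per cell cannot be told apart.

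From oocyte to blastocyst, cow libraries gained RNA of both glucose transporters, HK2, PGK1, ENO1, LDHB and PDHA1 and lost RNA of LDHA. A gene was compared where one of both libraries had at least 1 RPM, and counted as changed at a difference of 2 or more in log2(RPM + 1), which is 4-fold on that scale and understates the change of low genes. Of the 10 cow genes 9 were compared, 7 were higher and 1 was lower, while 40.2% of the 12738 cow rows compared were called changed (21.8% higher, 18.4% lower). The median difference of the 9 genes was 3.26, beside 0.18 for all rows compared. In pig 2 of the 6 genes were called, PGK1 and LDHB, both higher, beside 45.2% of the 12512 rows compared (26.0% higher, 19.2% lower), and the median difference of the 6 was 1.21 beside 0.43. With median-of-ratios scaling or quantile normalisation the pig split was 2 higher and 1 lower, LDHA being the third. PFKP in cow stayed under 1 RPM throughout and was not compared.

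**Figure D1:**
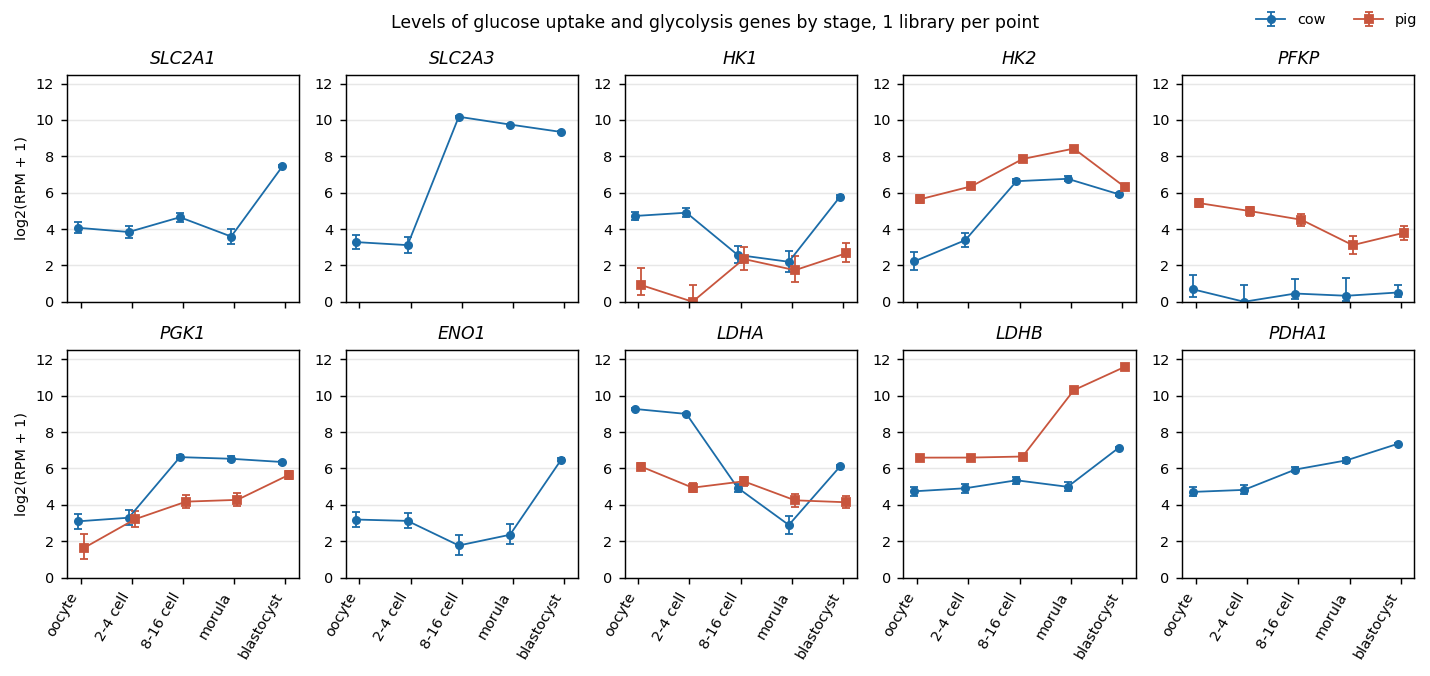
Level of each gene in log2(RPM + 1) against stage, cow as blue circles and pig as red squares, 1 library per point, with bars for the 95% Wilson interval of counting error. SLC2A3 in cow stands near 3 in the first 2 stages and above 9 from the 8-16 cell stage on, LDHA in cow falls to the morula and partly returns, and LDHB in pig climbs at the morula and blastocyst; the tables of both species were scaled separately.

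The genes changed at different steps. From the oocyte to the 2-4 cell stage 0 of 9 genes compared in cow were called (background 0.374%: 0.196% higher, 0.178% lower), and 0 of 5 in pig (background 5.43%: 3.26% higher, 2.17% lower). By the 8-16 cell stage 5 of 9 cow genes had moved against the 2-4 cell library, SLC2A3, HK2 and PGK1 higher and HK1 and LDHA lower, where 27.2% of all cow rows compared were called (12.6% higher, 14.6% lower). Of the 6 pig genes only HK1 was called at that step, higher and from 0 reads (background 4.87%: 4.33% higher, 0.543% lower). From the 8-16 cell stage to the morula LDHA fell further in cow, the 1 gene called of 9 (background 11.8%: 6.67% higher, 5.15% lower), a call lost with a pseudocount of 5 RPM. LDHB rose in pig, the 1 gene called of 6 (background 23.3%: 12.0% higher, 11.3% lower). From the morula to the blastocyst 5 of 9 cow genes were higher, SLC2A1, HK1, ENO1, LDHA and LDHB, and none was lower (background 23.4%: 11.9% higher, 11.5% lower). In pig HK2 was lower at that step, 1 of 6 (background 27.6%: 13.8% in each direction).

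**Figure D2:**
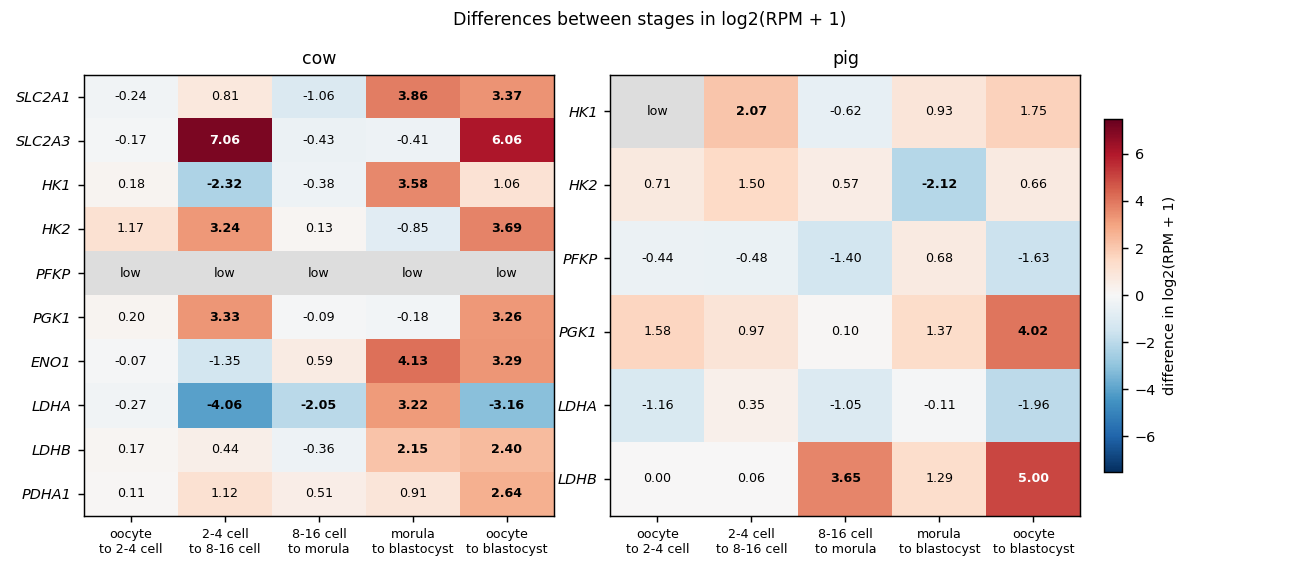
Difference in log2(RPM + 1) for each gene (rows) at each step between stages and from oocyte to blastocyst (columns), cow at the left and pig at the right, with differences of 2 or more in size in bold. "Low" marks a gene under 1 RPM in both libraries. Of the single steps in cow, SLC2A3 (7.06), HK2 and PGK1 were called only at the 8-16 cell stage. SLC2A1, ENO1 (4.13) and LDHB were called only at the blastocyst. HK1 and LDHA were called at both, LDHA also at the morula, and PDHA1 at none.

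SLC2A1 (GLUT1, cow chromosome 3, 103902890 to 103931096, plus strand) is the widespread basal glucose transporter. Its level in cow was 15.8 RPM in the oocyte library (12.7 to 19.7), 13.3 at the 2-4 cell stage, 24.1 at the 8-16 cell stage, 11.03 in the morula and 173 in the blastocyst (166 to 180.2). The blastocyst library stood apart from the 4 earlier ones, among which the intervals of morula, 2-4 cell stage and oocyte overlapped. From morula to blastocyst the level rose 15.7-fold (11.6 to 21.8), a difference of 3.86, and from oocyte to blastocyst it rose 10.9-fold (8.74 to 13.9).

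SLC2A3 (GLUT3, cow chromosome 5, 101896622 to 101909500, minus strand) is a transporter with high affinity for glucose. Its cow level was 8.72 RPM in the oocyte library (6.48 to 11.7), 7.66 at the 2-4 cell stage, 1157 at the 8-16 cell stage (1129 to 1186), 859.6 in the morula and 647 in the blastocyst (634 to 661). The first 2 libraries overlapped within counting error, and the last 3 lay far above them and declined in order without overlap. Between the 2-4 cell and 8-16 cell libraries the level rose 151-fold (108 to 218), a difference of 7.06 and the largest single-step difference among the 10 genes. At the 8-16 cell stage 99.8% of the cow rows had a lower RPM than SLC2A3, a rank that also depends on gene length and includes rows under 1 RPM. Both transporters thus rose in cow, SLC2A3 at the 8-16 cell stage and SLC2A1 at the blastocyst.

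HK1 (cow chromosome 28, 25854741 to 25925054, plus strand; pig chromosome 14, 72382912 to 72460924, plus strand) is the hexokinase found in most tissues. In cow it was at 25.4 RPM in the oocyte library (21.3 to 30.2), 28.8 at the 2-4 cell stage, 4.97 at the 8-16 cell stage (3.42 to 7.23), 3.59 in the morula and 53.9 in the blastocyst (50.3 to 57.9). The 8-16 cell and morula libraries were lowest and overlapped, the oocyte and 2-4 cell libraries overlapped in the middle, and the blastocyst was highest. At the 8-16 cell stage HK1 was 5.80-fold below the 2-4 cell stage (3.81 to 9.14), a difference of -2.32 that fell short of the threshold with median-of-ratios scaling (-1.99) and with a pseudocount of 5 RPM (-1.76). The return from morula to blastocyst was 15.02-fold (8.90 to 27.6), and the blastocyst ended 2.13-fold above the oocyte (1.76 to 2.59), short of the threshold.

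In pig HK1 was sparse, with 3, 0, 13, 7 and 20 reads in the 5 libraries from oocyte to blastocyst. The corresponding levels were 0.888, 0 (the floor of 3 reads corresponds to 0.725), 4.11, 2.33 and 5.36 RPM. All neighbours in the order of levels overlapped. The 8-16 cell library was at least 5.66-fold higher than the 2-4 cell library against the floor of 3 reads, a difference of 2.07. That call was lost with quantile normalisation (1.87), with libraries thinned to equal depth (1.84) and with a pseudocount of 5 RPM (0.80).

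HK2 (cow chromosome 11, 9723269 to 9766920, minus strand; pig chromosome 3, 68153824 to 68231615, minus strand) is the inducible hexokinase. In cow it was at 3.65 RPM in the oocyte library (2.31 to 5.77), 9.46 at the 2-4 cell stage, 98.1 at the 8-16 cell stage (90.1 to 107), 107.7 in the morula and 59.2 in the blastocyst (55.4 to 63.4). The 8-16 cell and morula libraries overlapped at the top and the oocyte was alone at the bottom. The step to the 8-16 cell stage was 10.4-fold (7.57 to 14.6). In pig HK2 was at 48.9 RPM (41.9 to 56.9), 80.7, 230.3, 343 (323 to 365) and 78.02 (69.6 to 87.5) in order of stage. Only the 2-4 cell and blastocyst libraries overlapped, the morula was highest, and the fall from morula to blastocyst was 4.397-fold (3.86 to 5.02), a difference of -2.12. HK2 thus had its highest level in the morula library in both species; in cow median-of-ratios scaling placed the 8-16 cell library first.

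PFKP (cow chromosome 13, 45500599 to 45553520, minus strand; pig chromosome 10, 67021453 to 67082534, minus strand) encodes the platelet isoform of phosphofructokinase. The cow libraries held 3, 0, 2, 1 and 6 PFKP reads from oocyte to blastocyst, at most 0.609 RPM, and all 5 overlapped. In pig the level fell short of a called change, with 42.04 RPM in the oocyte library (35.7 to 49.5), 30.7 and 21.8 over the following 2 stages, 7.66 in the morula (5.10 to 11.5) and 12.9 in the blastocyst (9.71 to 17.1). The morula and blastocyst libraries were lowest and overlapped, and the difference of blastocyst and oocyte was -1.63. The pig PFKP span shares 16.7% of its length with PITRM1 on the other strand, which stood at 45.9, 34.07, 24.004, 10.99 and 42.1 RPM. Whether counting used strand is not given in the sources used here, so reads in the shared stretch cannot be assigned to either gene.

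PGK1 (cow chromosome X, 79282708 to 79305386, minus strand; pig chromosome X, 62187404 to 62210705, plus strand) encodes phosphoglycerate kinase, the first step of glycolysis that yields ATP. In cow it stood at 7.51 RPM in the oocyte library (5.45 to 10.3), 8.79 at the 2-4 cell stage, 97.6 at the 8-16 cell stage (89.6 to 106), 91.6 in the morula and 80.7 in the blastocyst (76.2 to 85.5). The libraries formed 2 levels, the first 2 stages and the last 3, each overlapping in the order of levels. Between the 2-4 cell and 8-16 cell libraries the difference was 3.33 (ratio interval 8.02 to 15.8). In pig PGK1 was at 2.07 RPM (1.004 to 4.28), 8.22, 17.06, 18.3 and 48.8 (42.2 to 56.4) in order of stage. No single pig step reached the threshold, yet the blastocyst was 23.5-fold above the oocyte (11.2 to 59.4), a difference of 4.02.

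ENO1 (cow chromosome 16, 45401695 to 45416462, plus strand) encodes the widespread enolase. It was at 8.11 RPM in the cow oocyte library (5.96 to 11.05), 7.66 at the 2-4 cell stage, 2.39 at the 8-16 cell stage (1.40 to 4.09), 4.10 in the morula and 88.4 in the blastocyst (83.6 to 93.4). In order of level the 4 earlier libraries formed a chain of overlapping neighbours, and the blastocyst lay above them. The 8-16 cell interval nevertheless lay below those of the oocyte and 2-4 cell libraries. The fall from the 2-4 cell to the 8-16 cell stage was 3.20-fold (1.65 to 6.61), short of the threshold. The last step was 21.5-fold (13.2 to 37.8), a difference of 4.13. ENO1 and PGK1 act 2 steps apart in the same stretch of glycolysis. In cow they were called at different stages, ENO1 at the blastocyst and PGK1 at the 8-16 cell stage.

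LDHA (cow chromosome 29, 26543861 to 26554318, minus strand; pig chromosome 2, 40813963 to 40826715, minus strand) encodes the M subunit of lactate dehydrogenase, which prevails in skeletal muscle. In cow it was at 617 RPM in the oocyte library (595 to 639), 510.3 at the 2-4 cell stage (490 to 532), 29.6 at the 8-16 cell stage, 6.41 in the morula (4.34 to 9.47) and 67.97 in the blastocyst (63.8 to 72.4). No neighbours in this order overlapped. It fell 17.2-fold to the 8-16 cell stage (14.7 to 20.3) and 4.62-fold to the morula (3.02 to 7.36), then rose 10.6-fold to the blastocyst (7.14 to 16.5), which remained 9.07-fold below the oocyte (8.44 to 9.77). In pig LDHA was at 67.5 RPM (59.3 to 76.9), 29.7, 38.2, 17.98 and 16.6 (12.97 to 21.3) in order of stage. The pig oocyte was highest and 4.06-fold above the blastocyst (3.05 to 5.47), a difference of -1.96 that missed the threshold and passed it with median-of-ratios scaling (-2.09), quantile normalisation (-2.18), thinning to equal depth (-2.03) and a pseudocount of 0.1 (-2.02).

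The summed level of markers of cumulus cells, which surround the oocyte and can adhere to it, was highest in the first 2 cow libraries, as was LDHA. In pig the sum was highest in the morula. Summed over the list the markers stood at 481, 451, 139, 135 and 133 RPM in cow (19 of 20 in the table) and at 179, 151, 322, 505 and 367 RPM in pig (14 of 20). In the cow oocyte library 10 of the 19 were at 1 RPM or more, led by STAR (157 RPM), HAS2 (141 RPM) and VCAN (116 RPM). FOXL2, AMH, AMHR2, INHA, LHCGR, CYP11A1 and FST had 0 reads there. Some cow markers were higher later. CYP19A1 went from 2.64 RPM in the oocyte to 48.8 in the blastocyst, and NR5A2 from 1.83 to 54.6 in the morula. LHCGR and CYP11A1 reached 16.1 and 16.6 RPM in the blastocyst. The pig morula sum was mostly VCAN (338 RPM) and NR5A2 (117 RPM), while STAR (43.2 RPM in the oocyte, 13.3 in the morula), FSHR (11.3 and 2.33 RPM) and GREM1 (17.5 RPM and 0 reads) were lower there than in the oocyte. The part of cumulus markers in the levels of LDHA, and of PFKP in pig, was not tested.

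LDHB (cow chromosome 5, 88962679 to 88981219, plus strand; pig chromosome 5, 51810967 to 51831490, plus strand) encodes the H subunit, which prevails in heart. In cow it was at 25.8 RPM in the oocyte library (21.7 to 30.6), 29.1, 39.8 and 30.8 over the following 3 stages and 140.2 in the blastocyst (134 to 146). In order of level, neighbours among the first 4 stages overlapped (oocyte, 2-4 cell, morula, 8-16 cell), while the 2-4 cell and 8-16 cell intervals did not overlap each other. The blastocyst was 4.55-fold above the morula (3.79 to 5.52). In pig LDHB was level at 95.6 (85.8 to 107), 95.9 and 99.8 RPM (89.4 to 111) up to the 8-16 cell stage, then 1265 in the morula (1225 to 1305) and 3092 in the blastocyst (3037 to 3149). The morula was 12.7-fold above the 8-16 cell stage (11.3 to 14.3), and the blastocyst was 32.3-fold above the oocyte (28.95 to 36.2), the largest difference among the 6 pig genes at 5.001. In the pig blastocyst library 99.9% of the rows had a lower RPM than LDHB, a rank that likewise depends on gene length and includes rows under 1 RPM.

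PDHA1 (cow chromosome X, 130874454 to 130897343, minus strand) encodes the catalytic alpha subunit of pyruvate dehydrogenase. It was at 25.2 RPM in the cow oocyte library (21.1 to 29.99), 27.3 at the 2-4 cell stage, 60.4 at the 8-16 cell stage, 86.2 in the morula and 162 in the blastocyst (156 to 169). The first 2 libraries overlapped and each later one lay above the one before. No single step reached the threshold, and the blastocyst was 6.46-fold above the oocyte (5.39 to 7.80), a difference of 2.64. Of its span 5.24% overlaps MAP3K15 on the other strand, which was at 57.6, 99.4, 27.2, 35.1 and 61.6 RPM. LDHA, LDHB, PGK1 and ENO1 belong to the glycolytic genes known to have processed copies elsewhere in mammalian genomes, and the handling of reads that match several places is not given in the sources used here, so part of their reads is uncertain.

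The balance within pairs of genes with the same role shifted between stages. Within a pair the share of reads, and the size of a change in it, depend on both gene lengths, whereas the direction of a change between stages of a species does not. In cow SLC2A1 held 64.5% of the reads of both transporters in the oocyte library (55.6 to 72.4), 63.4% at the 2-4 cell stage, 2.04% at the 8-16 cell stage (1.72 to 2.42), 1.27% in the morula and 21.1% in the blastocyst (20.4 to 21.9). HK1 held 87.4% of the reads of both hexokinases in the cow oocyte library (80.98 to 91.9), 75.3% at the 2-4 cell stage, 4.82% at the 8-16 cell stage, 3.23% in the morula (1.93 to 5.34) and 47.7% in the blastocyst (45.2 to 50.1). Both cow shares thus dropped at the 8-16 cell stage and came partly back at the blastocyst. In pig HK1 held 1.79%, 0%, 1.75%, 0.675% and 6.43% (4.20 to 9.72) of the hexokinase reads in order of stage. The pig share had no such drop, and the intervals of the first 3 stages overlapped.

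The lactate dehydrogenase pair shifted from LDHA towards LDHB in both species. In cow the LDHA share was 95.99% in the oocyte library (95.3 to 96.6), 94.6% at the 2-4 cell stage, 42.7% at the 8-16 cell stage (37.8 to 47.7), 17.2% in the morula (11.96 to 24.2) and 32.7% in the blastocyst (30.99 to 34.4). In pig it was 41.4% in the oocyte library (37.3 to 45.5), 23.7%, 27.7%, 1.40% in the morula (1.08 to 1.82) and 0.535% in the blastocyst (0.417 to 0.685). The cow share dropped at the 8-16 cell stage through loss of LDHA reads, with LDHB at 39.8 RPM beside 29.1 before. The pig share dropped at the morula, where LDHB rose 12.7-fold and LDHA went from 38.2 to 17.98 RPM.

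**Figure D3:**
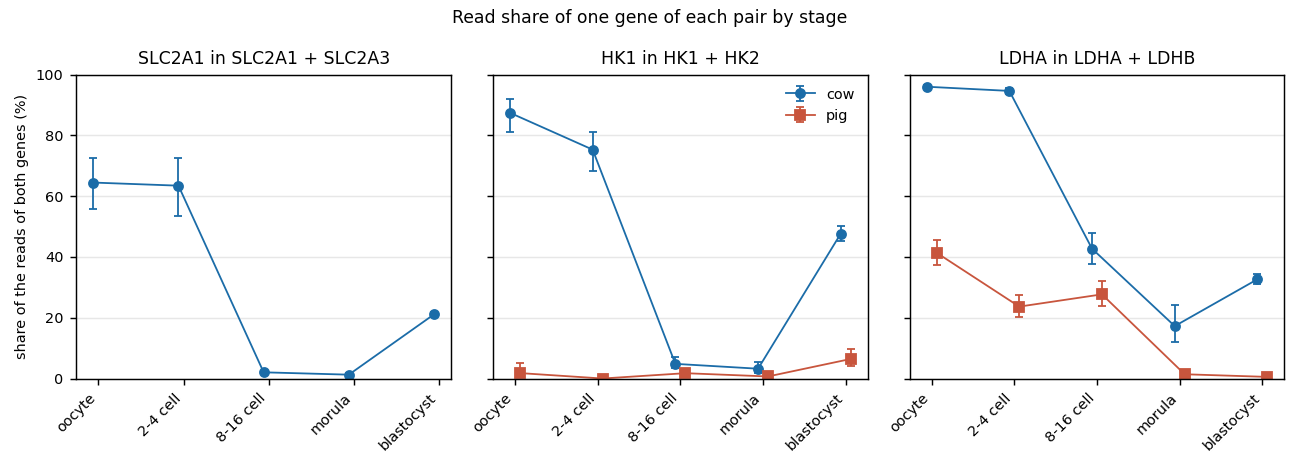
Share of reads of SLC2A1, HK1 and LDHA among the reads of each pair (percent) against stage, cow as blue circles and pig as red squares, 1 library per point, with 95% Wilson intervals. The cow shares drop at the 8-16 cell stage (SLC2A1 from 63.4% to 2.04%) and partly recover at the blastocyst, and the pig LDHA share drops at the morula, to 1.40%.

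For the 6 genes in both tables, genes of most similar course were sought among 6279 shared symbols by Pearson's r over the 10 libraries, with log2(RPM + 1) centred within each species. The points share their libraries and only 5 stages per species, so the values describe these libraries. LDHA was closest to CRBN (r = 0.993), CLDN12 (0.978) and NR6A1 (0.977), and HK2 to KLF3 (0.988), TAF4B (0.985) and SELENOS (0.975). LDHB was closest to VDAC2 (0.979), a channel of the outer mitochondrial membrane, MAP2K2 (0.977) and NDUFB10 (0.968), a subunit of respiratory complex I. PGK1 was closest to PPP2R5A (0.972), DPY19L4 (0.969) and PHYKPL (0.968). PFKP had IFT81 (0.956), FAM169A (0.935) and CDC42SE1 (0.923) nearest, and HK1 had PPP1R9A (0.928), PLS1 (0.920) and CSNK1D (0.902). The courses of LDHB and PGK1 were common, with 160 and 117 symbols above an r of 0.9, beside 79 for HK2, 60 for LDHA, 6 for PFKP and 3 for HK1.

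Other genes of glucose metabolism were counted from 10 lists that held 93 genes, of which 88 had a row in cow and 84 in pig. From oocyte to blastocyst 27 of the 72 compared in cow were higher and 11 lower, with a median difference of 1.10 (1.05 with genes at or under 3 reads set to 3) beside 0.18 for all rows compared. In pig, of the 66 compared, 29 rose and 5 fell, and the median difference was 1.53 (1.42) beside 0.43. The shares called, 38 of 72 and 34 of 66, stand beside backgrounds of 40.2% and 45.2%. With RPM taken over non-mitochondrial gene reads the cow split was 33 higher and 7 lower. With quantile normalisation it was 24 and 13, and with median-of-ratios scaling it stayed at 27 and 11. Called in both species were 18 genes: 14 higher in both, HIF1A and LDHC lower in both, and GYG1 and TXNIP in opposite directions. These 18 were 29.5% of the 61 listed genes compared in both species, beside 22.7% of the 8567 shared symbols compared in both, and the 14 were 23.0% beside 955 of the 8567.

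**Figure D4:**
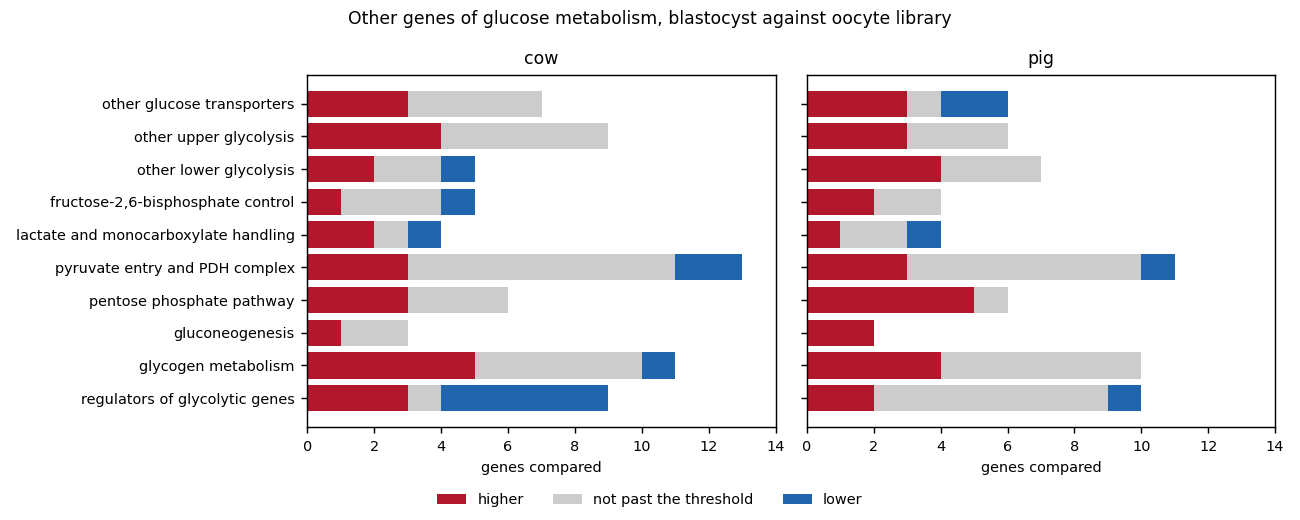
Number of genes compared in each list of other glucose metabolism genes (bars, x axis) from the oocyte to the blastocyst library, cow at the left and pig at the right, coloured by whether they were higher, lower or short of a difference of 2 in log2(RPM + 1). In the pentose phosphate list 3 of 6 cow genes and 5 of 6 pig genes were higher and 0 lower, and the cow list of regulators had 5 of 9 lower, where 21.8% of all cow rows and 26.0% of all pig rows were higher and 18.4% and 19.2% lower.

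In the other steps of glycolysis, ALDOA (aldolase A) rose 6.52-fold in cow to 107 RPM in the blastocyst library, and 24.6-fold in pig to 160.3 RPM. PGAM1 (phosphoglycerate mutase) rose 24.0-fold in cow to 346 RPM, and in pig it had 0 oocyte reads and 176 RPM in the blastocyst, at least 198-fold more. PFKL, the liver-type phosphofructokinase, had 1 oocyte read and 13.9 RPM in the blastocyst in cow (68.5-fold, 12.1 to 2718). Its pig libraries had 0 reads before the blastocyst, which had 8.31 RPM, at least 9.36-fold more than the oocyte. GAPDH, often used as a reference gene, rose 91.2-fold in pig (4.74 and 432 RPM). Its cow oocyte and blastocyst levels of 78.9 and 159.7 RPM gave a difference of 1.01, short of the threshold. Between these stages cow GAPDH was not level, with 29.6 RPM at the 8-16 cell stage and 24.1 in the morula. It was called higher from morula to blastocyst. Where 21.8% of all cow rows and 26.0% of all pig rows were higher, of upper glycolysis 4 of 9 cow genes and 3 of 6 pig genes were higher, and of lower glycolysis 2 of 5 and 4 of 7, with BPGM, which makes 2,3-bisphosphoglycerate, the only one lower (cow, 55.2 RPM to 3 reads). PFKFB4, which sets the level of a phosphofructokinase activator, rose from 4 oocyte reads in both species, with blastocyst levels of 55.8 RPM (cow) and 9.65 RPM (pig).

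In the pentose phosphate pathway, which branches off glycolysis, TKT (transketolase) rose 20.2-fold in cow to 111 RPM, and 72.6-fold in pig to 387 RPM. TALDO1 (transaldolase) rose 4.86-fold in cow, while its pig oocyte had 3 reads and its blastocyst 105 RPM. On the lactate side BSG (basigin), the chaperone of monocarboxylate transporters, rose 18.1-fold in cow and 21.5-fold in pig, and LDHC, the germ cell subunit, fell 14.6-fold in cow and at least 74.7-fold in pig, where the blastocyst had 0 reads.

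At the entry of pyruvate into mitochondria, 3 of 13 genes were higher and 2 lower in cow, and 3 of 11 higher and 1 lower in pig. The 5 of 13 and 4 of 11 called stand beside backgrounds of 40.2% and 45.2%. In cow MPC1, a subunit of the mitochondrial pyruvate carrier, rose 31.4-fold to 82.9 RPM, and PDHB, the beta partner of PDHA1, rose 19.5-fold to 225 RPM. In pig PC (pyruvate carboxylase) had 0 oocyte reads and 75.9 RPM in the blastocyst, at least 85.4-fold more, and DLD, a subunit shared by several dehydrogenase complexes, rose 30.1-fold to 704 RPM. Among regulators HIF1A, the hypoxia-inducible factor subunit, was 14.1-fold lower in the cow blastocyst (689 and 48.8 RPM) and 4.12-fold lower in the pig blastocyst (735 and 179 RPM). MLXIP, a glucose-responsive transcription factor, rose 13.5-fold in cow and 9.13-fold in pig. In glycogen metabolism 5 of 11 cow genes were higher and 1 lower, and 4 of 10 pig genes were higher and 0 lower (all rows: 21.8% higher and 18.4% lower in cow, 26.0% and 19.2% in pig). PGM1 (phosphoglucomutase) rose 4.51-fold in cow and, from 2 oocyte reads, 16.3-fold in pig (4.20 to 139.7), and PGM2 rose in both. Of gluconeogenesis G6PC3, a widespread glucose-6-phosphatase, rose 8.34-fold in cow and at least 42.6-fold in pig. PPARGC1A, a coactivator of mitochondrial and gluconeogenic genes, fell 19.4-fold in cow. The pig spans of ALDOA, GAPDH, TALDO1, LDHC, PC, HIF1A, G6PC3 and PGM2 overlap another row of the table, so part of their reads is not certain.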

How the data were processed

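The 2 deposited tables, 1 per species, hold log2 values made by the authors for every gene row in 5 stage columns. The submitters' processing notes name Trim Galore 0.6.4, HISAT2 2.1.0 and the builds UMD3.1 and Sscrofa11.1, with no roles; the counting method, annotation and strand setting are not given in the sources used here. Coordinates are those of the tables. Between 99.94% and 99.99% of the deposited values above the lowest are whole multiples of 1 read (tolerance 0.01 of a read), so the log2 values are log2 RPM with 0 reads written as 0.9 of a read. Reads and totals were recovered from this step, and gene rows held between 71.7% and 92.7% of them. Differences of log2(RPM + 1) used the deposited values, with a minimum of 1 RPM in one library and a call at 2. The floor is 3 reads per library. With 1 library per group no test was possible. Of the genes in the other lists, those named were called in both species or among the 2 largest of their list in one species, and GAPDH in cow was added after its value was seen. The list entry PKM was matched to the cow row PKM2, and G6PC1 to G6PC. One gene of these lists is counted but not reported here by name. The calling rule was also run on simulated data, a check of the rule that cannot stand in for replicate libraries. Members, lists and thresholds were chosen with earlier results of these data known. The alternatives were 12 settings of pseudocount, minimum, threshold, scaling, depth, repeated rows and zeros; the last was chosen after seeing the data. Python 3.11.15, pandas 2.3.3 and scipy 1.17.1 were used.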

Additional observations from a re-analysis of the deposited data

Results flagged for a closer look

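Among the 6 genes analysed in both species only HK1 was called in opposite directions in cow and pig at the same comparison. From oocyte to blastocyst GYG1 and TXNIP were, 2 of the 61 listed genes compared in both species (3.28%). Of the 8567 shared symbols 1.61% were lower in cow and higher in pig, and 1.42% the reverse. At single steps the listed genes with opposite calls were PFKM and SLC16A7 (higher in cow) and TXNIP (higher in pig), from morula to blastocyst. Each species contributes 1 library per stage, and the difference between the species was not tested. Between the 2-4 cell and 8-16 cell libraries HK1 differed by -2.32 on the log2(RPM + 1) scale in cow (28.8 and 4.97 RPM) and by 2.07 in pig (0 and 13 reads). A pseudocount of 5 RPM or a call at a difference of 3 removed both HK1 calls, median-of-ratios scaling removed the cow call, and a minimum of 5 RPM, quantile normalisation or thinning removed the pig call. GYG1 (glycogenin, the primer of glycogen synthesis) differed by -4.42 from the cow oocyte to the blastocyst, from 194 to 8.11 RPM, and by 3.67 in pig, from 1.48 to 30.6 RPM, where its span overlaps HLTF. TXNIP, an inhibitor of glucose uptake, differed by -4.97 in cow, from 32.3 RPM to 0 reads, and by 2.84 in pig, from 1 read to 8.31 RPM.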

How the results depend on the processing

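A call at a difference of 1 moved the number of called members to 1 for cow oocyte to 2-4 cell, 2 for cow 8-16 cell to morula, 2 for pig oocyte to 2-4 cell, 2 for pig 2-4 to 8-16 cell, 3 for pig 8-16 cell to morula, 3 for pig morula to blastocyst and 5 for pig oocyte to blastocyst, and the other pig pathway genes called to 53. A call at 3 gave 0 for cow 8-16 cell to morula, 0 for pig 2-4 to 8-16 cell and 0 for pig morula to blastocyst, and 23 (cow) and 22 (pig) other pathway genes. A pseudocount of 5 RPM gave 0 for cow 8-16 cell to morula and 0 for pig 2-4 to 8-16 cell, and 23 (cow) and 21 (pig) other pathway genes, and a pseudocount of 0.1 gave 4 for pig oocyte to blastocyst. The 1 pig call from the 2-4 to the 8-16 cell stage, HK1, also went to 0 with a minimum of 5 RPM, quantile normalisation and thinning. Median-of-ratios scaling left 3 higher and 1 lower cow members from the 2-4 to the 8-16 cell stage, in place of 3 and 2. Other scalings moved the median of all rows from oocyte to blastocyst by -0.14 to 0.38 in cow and -0.31 to 0.12 in pig, and turned small uncalled differences of HK1, HK2, PGK1, LDHB and PDHA1 at single steps. No called member difference reversed among the alternatives run. No paired analysis was possible because each group had 1 library, and none could be left out. Depth limits PFKP in cow and HK1 in pig, with 0 to 6 and 0 to 20 reads a library.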

Other observations

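Several other glucose transporters had values of interest in one species, in tables that were scaled separately. SLC2A9 (GLUT9, a urate transporter) had 1.83 RPM in the oocyte, 14.4 in the morula and 337 in the blastocyst of cow, 185-fold above the oocyte, and in pig it had 0, 12, 10, 2 and 1 reads in order of stage, at most 3.16 RPM. SLC2A2 (GLUT2, the low-affinity transporter of liver and pancreas) had 0 reads in all 5 cow libraries, and in pig went from 0 reads in the oocyte to 23.98 RPM in the morula and 169.98 in the blastocyst, at least 191-fold above the oocyte. The pig SLC2A2 span overlaps another row. SLC2A12, whose pig span overlaps TBPL1, fell 16.2-fold in pig, from 118 to 7.24 RPM, and stayed at or under 2.05 RPM in cow. SLC2A13, a proton myo-inositol transporter, rose 32.3-fold in cow, from 3.04 to 98.3 RPM. In pig it went from 34.9 to 102 RPM, short of the threshold.

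TKT in cow did not peak at the blastocyst: it went from 4.96 RPM at the 2-4 cell stage to 227 at the 8-16 cell stage and 341 in the morula, then to 111 in the blastocyst. GYG1 in cow stood at 194, 201, 131, 6.41 and 8.11 RPM in order of stage, so that its drop came at the morula.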
